A study of Papio papio with 23 samples.

Results

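The genes described here encode 5 subunits of the phagocyte NADPH oxidase, CYBB, CYBA, NCF1, NCF4 and RAC2. They were found by name: every probe of the array whose gene name is one of these symbols was taken, which gave 10 of the 50599 probes and 5 of the 36337 gene names. All 10 probes were well above background (the scanner software's call that a spot exceeds its local background) on 23 of 23 arrays, and none was saturated or marked as an outlier spot.

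The RNA came from whole blood of adult male baboons of the species Papio papio, 8.1 ± 3.3 years old on average, and each sample was hybridised to its own human Agilent array in a single colour. Group H0 holds 5 healthy baboons sampled before any irradiation. The other groups hold baboons irradiated under anaesthesia with gamma rays from a 60Co source and named for the severity category of the acute radiation syndrome of the blood, a fall in blood cells, that they developed later. Category H1-2 holds 4 baboons and the more severe category H2-3 holds 5, each sampled on day 1 and again on day 2 after exposure. Equivalent whole-body doses of 2.5 or 5 Gy, given to the total or a part of the body, are stated for the study and not for each animal, so a category can mix doses and fields. The sources used here do not say if the animals of H0 were irradiated later. The study asked whether early blood gene expression foretells the later blood syndrome.

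The phagocyte NADPH oxidase moves electrons from NADPH across a membrane onto oxygen and so makes superoxide, the start of the respiratory burst with which neutrophils and monocytes kill microbes. In resting cells it is in pieces. CYBB, the catalytic subunit that carries flavin and haem, and CYBA, its membrane partner, form a cytochrome in granule and plasma membranes. NCF1, the organising subunit, and NCF4, which binds phosphoinositides on phagosomes, wait in the cytosol. On stimulation NCF1 is phosphorylated, the cytosolic subunits move to the membrane, and the small GTPase RAC2, the main Rac of blood cells, joins them. Inherited loss of CYBB, CYBA, NCF1 or NCF4 causes chronic granulomatous disease, a failure of phagocytes to kill certain bacteria and fungi.

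NCF1 and RAC2 were each read by several probes of 60 bases. The sequences below are those of all 4 NCF1 probes, of the CYBA and NCF4 probes and of the second RAC2 probe, whose values are set against each other or lead the results; the probe that gives the RAC2 level is described by its position. They are the human design sequences in the scanner files, read 5′ to 3′.
CYBA A_33_P3372332: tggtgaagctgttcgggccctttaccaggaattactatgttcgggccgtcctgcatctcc
NCF1 A_33_P3224803: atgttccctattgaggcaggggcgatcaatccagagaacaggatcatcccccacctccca
NCF1 A_23_P42746: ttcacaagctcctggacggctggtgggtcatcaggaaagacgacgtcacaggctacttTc
NCF1 A_33_P3211432: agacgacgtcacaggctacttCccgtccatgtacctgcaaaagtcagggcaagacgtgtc
NCF1 A_33_P3369393: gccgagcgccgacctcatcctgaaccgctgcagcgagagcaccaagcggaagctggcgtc
NCF4 A_33_P3365432: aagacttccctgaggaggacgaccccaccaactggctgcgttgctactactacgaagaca
RAC2 A_24_P228717: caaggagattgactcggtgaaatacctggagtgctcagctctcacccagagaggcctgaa

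The capitals mark the base at which a pair of overlapping NCF1 probes differ. The last 23 bases of A_23_P42746 are the first 23 of A_33_P3211432 with 1 mismatch, T59C, counted from 1 at the 5′ end of A_23_P42746, so these probes are not independent readings. The remaining NCF1 probes share no bases with them. On the human build hg19 the NCF1 probes lie on the plus strand, A_33_P3224803 at chr7:74193443-74193502, A_23_P42746 at chr7:74199612-74202353, A_33_P3211432 at chr7:74202331-74202390 and A_33_P3369393 at chr7:74203435-74203494. A_23_P42746 covers 2742 bases of the genome with its 60 bases and therefore crosses at least 1 intron. NCF1 has near-identical pseudogene copies in the human genome, NCF1B and NCF1C, which have no probe of their own name on this array. No baboon genome was used here, so whether these animals carry such copies is not known. If they do, signal from transcripts of the gene and of its copies cannot be told apart.

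The CYBB probe A_24_P365767 lies at chrX:37672561-37672620 on the plus strand, 4164 bases into its design transcript, and the CYBA probe at chr16:88713164-88713223 on the minus strand. The NCF4 probe lies at chr22:37271750-37271809 on the plus strand, and the brightest RAC2 probe, A_23_P218770, at chr22:37621452-37621511 on the minus strand, 349.6 kb away. A_24_P228717 covers 4487 bases at chr22:37622795-37627281 and crosses at least 1 intron of RAC2. The third RAC2 probe, A_33_P3220160, was designed on a separate cDNA and lies at chr22:37636848-37636907. The share of G and C was 35% in the CYBB probe, 68.3% in NCF1 probe A_33_P3369393 and 45 to 55% in the other 8. All were made to human transcripts but met baboon RNA, so levels are compared between arrays and never between probes.

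Levels below are log2 signals minus the array's own 75th percentile, so a value of 4 is a signal 4 log2 units above it. On single arrays 41.4 to 51.3% of all probes were well above background. Markers of red cells, neutrophils, monocytes, T cells, B cells and NK cells were all detected, although CEACAM3 of the neutrophil list, CSTA of the monocyte, THEMIS of the T cell, MS4A1 and PAX5 of the B cell and SH2D1B of the NK cell list were not kept for testing, and FCGR3B and LYZ have no probe of that name. In whole blood, fewer cells of a type and less RNA per cell cannot be told apart. The arrays were hybridised on 7 slides and scanned on 3 days: all day 1 samples and 3 of the 5 H0 samples on the first, all day 2 samples on the second and the other 2 H0 samples on the third. Day 2 and its scan day therefore cannot be told apart, neither against H0 nor against day 1.

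**Figure D1:**
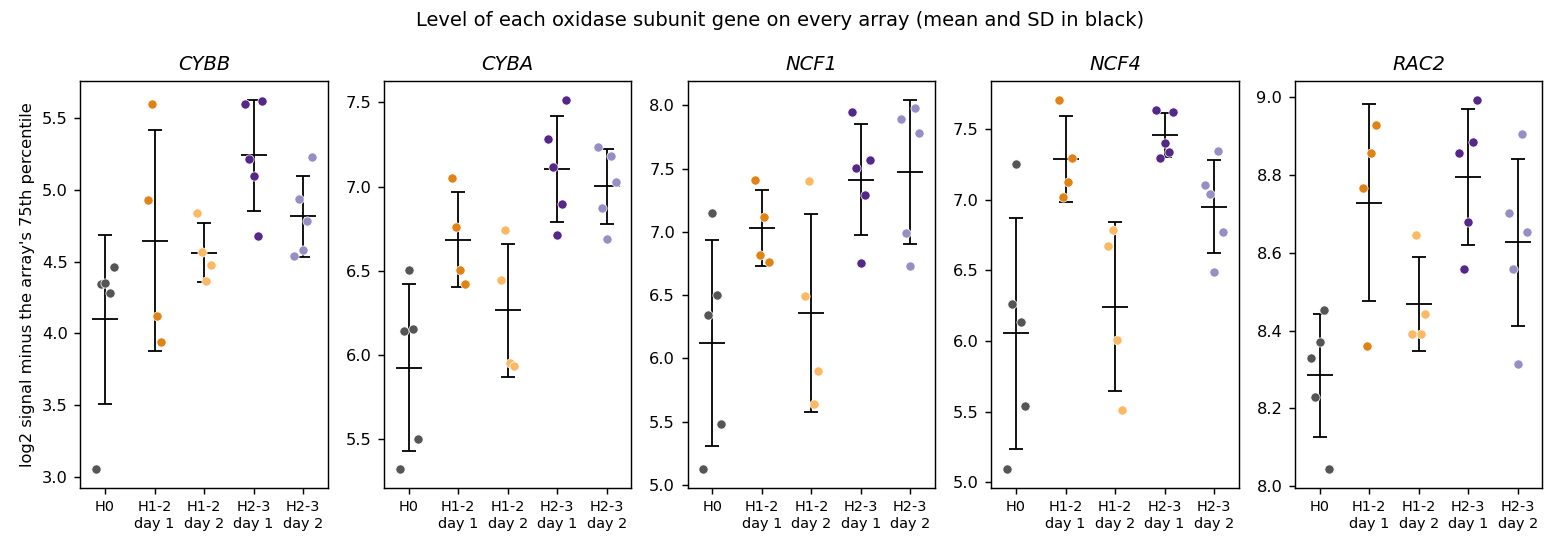
Level of each subunit gene (log2 signal minus the array's 75th percentile, its brightest probe) on every array, in the 5 groups, with the group mean and SD in black; each panel has its own axis. The 5 arrays of H2-3 on day 1 lie above all 5 H0 arrays for CYBB, CYBA, NCF4 and RAC2, and H0 spreads widest for NCF4 and NCF1.

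CYBB, the catalytic subunit, rose on day 1 in the severe category. In H0 its level was 3.06, 4.35, 4.35, 4.28 and 4.47 in baboons 1 to 5 (4.10 ± 0.59, SD, n = 5), and baboon 1 stood apart as the lowest. In H1-2 on day 1 it was 4.93, 5.60, 4.12 and 3.94 (4.65 ± 0.77, n = 4), with 2 baboons above all of H0 and 2 within its range. On day 2 the same baboons were at 4.84, 4.57, 4.36 and 4.48 (4.56 ± 0.20), the narrowest spread of any group. The 5 baboons of H2-3 were on day 1 at 5.59, 5.21, 5.09, 4.68 and 5.61 (5.24 ± 0.39, n = 5), all above every H0 array. On day 2 they were at 4.54, 4.94, 4.58, 4.78 and 5.23 (4.81 ± 0.28), again all above every H0 array.

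Against H0, CYBB was 2.20-fold higher in H2-3 on day 1, a log2 difference of 1.14 ± 0.30 (SE; adjusted p = 0.00660). The difference was 0.71 ± 0.30 in H2-3 on day 2 (adjusted p = 0.0958), 0.55 ± 0.31 in H1-2 on day 1 (adjusted p = 0.279) and 0.46 ± 0.31 in H1-2 on day 2 (adjusted p = 0.591), and none of these passed the test. In order of the means the groups ran from H0 over H1-2 day 2, H1-2 day 1 and H2-3 day 2 to H2-3 day 1, and each group overlapped the next in that order. Without H0 baboon 1, the lowest array, the day 1 difference in H2-3 was 0.88 (adjusted p = 0.0231).

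CYBA, the membrane partner that CYBB needs to be stable, rose in the severe category on both days. In H0 it was at 5.32, 6.14, 6.51, 6.15 and 5.50 (5.92 ± 0.50), lowest in baboon 1 and highest in baboon 3. H1-2 gave 7.05, 6.76, 6.51 and 6.42 on day 1 (6.68 ± 0.28) and 6.44, 6.74, 5.95 and 5.93 on day 2 (6.27 ± 0.40). Baboons 1 and 2 of H1-2 were above all of H0 on day 1, and only baboon 2 was so on day 2. H2-3 gave 7.28, 7.12, 6.71, 6.90 and 7.52 on day 1 (7.10 ± 0.32) and 7.24, 6.87, 6.69, 7.18 and 7.03 on day 2 (7.00 ± 0.22), so that all 10 arrays of the severe category lay above all 5 of H0.

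The CYBA difference from H0 in H2-3 was 1.18 ± 0.23 on day 1 (2.27-fold, adjusted p = 0.000869) and 1.08 ± 0.23 on day 2 (2.11-fold, adjusted p = 0.00873). Among the members these calls held most widely: CYBA kept its day 1 call under all 25 alternatives and its day 2 call under all 23 that gave a value. Fits with slide or scan day as a block gave no value for day 2, so its day 2 call was not examined for either. In H1-2 the difference was 0.76 ± 0.25 on day 1 (adjusted p = 0.0562) and 0.34 ± 0.25 on day 2 (adjusted p = 0.612). The day 1 value passed the test without H0 baboon 3 (0.90, adjusted p = 0.0189). The order of the group means was the same as for CYBB, with overlap at each step.

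NCF1, the organising subunit, rose in the severe category on both days but was the most scattered of the members. Its brightest probe, A_33_P3369393, gave 5.12, 6.34, 7.15, 6.50 and 5.48 in H0 (6.12 ± 0.81), a span of more than 2 log2 units among healthy animals. H1-2 gave 7.41, 6.82, 7.12 and 6.76 on day 1 (7.03 ± 0.30) and 6.49, 7.40, 5.64 and 5.90 on day 2 (6.36 ± 0.78). H2-3 gave 7.95, 7.51, 6.75, 7.29 and 7.57 on day 1 (7.41 ± 0.44) and 7.89, 6.99, 6.73, 7.98 and 7.78 on day 2 (7.48 ± 0.57). H0 baboon 3, at 7.15, was above baboon 3 of H2-3 on day 1 and above baboons 2 and 3 on day 2, so the groups overlapped.

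Against H0, NCF1 was higher by 1.29 ± 0.37 in H2-3 on day 1 (2.45-fold, adjusted p = 0.0118) and by 1.36 ± 0.37 on day 2 (2.56-fold, adjusted p = 0.0217). In H1-2 the difference was 0.91 ± 0.39 on day 1 (adjusted p = 0.140) and 0.24 ± 0.39 on day 2 (adjusted p = 0.832). Single arrays moved these calls. The H2-3 day 2 call was lost without H0 baboon 1 (1.11, adjusted p = 0.0713), H0 baboon 5 (1.20, 0.0523), H2-3 baboon 4 (1.23, 0.0709) or H2-3 baboon 5 (1.28, 0.0540). The H1-2 day 1 value passed without H0 baboon 3 (1.17, adjusted p = 0.0456).

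The 4 NCF1 probes gave like differences, with pairwise Pearson r of 0.95 to 0.99 over the 23 arrays. In a fit of all 27215 kept probes, in which 28.6% of the probes changed on day 1 and 14.8% on day 2 in H2-3, all 4 were called on both days. Their log2 differences from H0 in H2-3 were 1.41, 1.20, 1.38 and 1.29 on day 1, in the order of the sequences above, and 1.18, 1.29, 1.41 and 1.36 on day 2. In H1-2 on day 1 they were 1.05, 0.86, 1.03 and 0.91, none called, where 8.69% of all probes were. The pair that overlaps by 23 bases and the pair that shares no bases with it gave values in the same range.

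**Figure D2:**
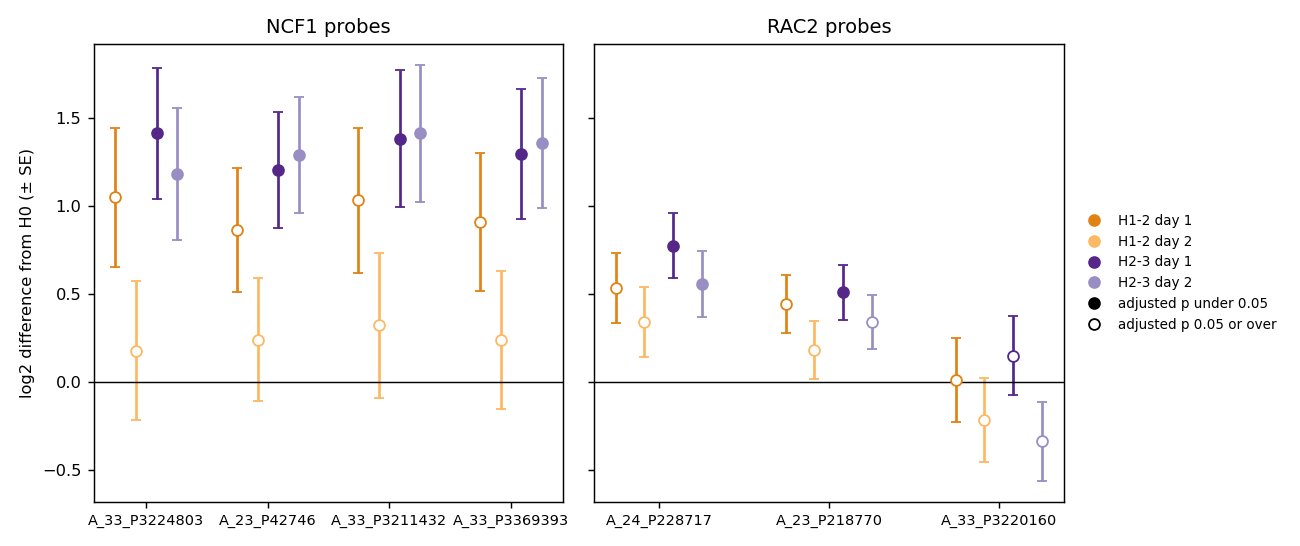
Log2 difference from H0 with its standard error for each probe of NCF1 (left) and RAC2 (right) in the 4 irradiated groups, from the fit of all kept probes; filled points have an adjusted p under 0.05. The 4 NCF1 probes run in parallel, while RAC2 probe A_33_P3220160 lies near 0 (-0.33 to 0.15) where the other RAC2 probes lie above it.

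NCF4, the phosphoinositide-binding cytosolic subunit, was the 1 member called in the milder category. Its levels in H0 were 5.09, 6.26, 7.25, 6.13 and 5.54 (6.06 ± 0.82), with baboon 3 nearly 1 log2 unit above the next. In H1-2 on day 1 the baboons were at 7.71, 7.02, 7.13 and 7.29 (7.29 ± 0.30), and on day 2 at 6.67, 6.79, 6.01 and 5.51 (6.24 ± 0.60). All 4 day 2 arrays lay below all 4 day 1 arrays. Those of H2-3 lay on day 1 within a narrow band at 7.64, 7.30, 7.40, 7.34 and 7.62 (7.46 ± 0.16), all above every H0 array, and on day 2 at 7.10, 7.04, 6.49, 7.35 and 6.77 (6.95 ± 0.33), with 1 array above H0 baboon 3.

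The NCF4 difference from H0 was 1.23 ± 0.33 in H1-2 on day 1 (2.35-fold, adjusted p = 0.0270) and 1.40 ± 0.31 in H2-3 on day 1 (2.65-fold, adjusted p = 0.00198). On day 2 it was 0.19 ± 0.33 in H1-2 (adjusted p = 0.841) and 0.89 ± 0.31 in H2-3 (adjusted p = 0.0532). The H1-2 day 1 call was lost without H0 baboon 1 (0.99, adjusted p = 0.0715) or 5 (1.10, 0.0702) and without H1-2 baboon 1 (1.09, 0.113), 2 (1.32, 0.0538) or 4 (1.23, 0.0556), and the H2-3 day 2 value passed without H0 baboon 3 (1.19, adjusted p = 0.00694) or H2-3 baboon 3 (1.01, 0.0406). In order of the means H0 and H1-2 day 2 were lowest, H2-3 day 2 stood in the middle, and H1-2 day 1 and H2-3 day 1 were highest, with each group overlapping the next.

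RAC2, the Rac GTPase of blood cells, differed least from H0 of the members, each read by its brightest probe. Its brightest probe, A_23_P218770, gave 8.33, 8.23, 8.37, 8.45 and 8.04 in H0 (8.29 ± 0.16). H1-2 gave 8.77, 8.36, 8.86 and 8.93 on day 1 (8.73 ± 0.25) and 8.39, 8.65, 8.39 and 8.44 on day 2 (8.47 ± 0.12). H2-3 gave 8.86, 8.56, 8.68, 8.89 and 8.99 on day 1 (8.80 ± 0.17), all above H0, and 8.70, 8.56, 8.31, 8.91 and 8.65 on day 2 (8.63 ± 0.22), 4 of 5 above H0. The difference from H0 was 0.51 ± 0.15 in H2-3 on day 1 (1.42-fold, adjusted p = 0.0161), and 0.34 ± 0.15 on day 2 (adjusted p = 0.118). In H1-2 it was 0.44 ± 0.16 on day 1 (adjusted p = 0.0846) and 0.18 ± 0.16 on day 2 (adjusted p = 0.675).

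The RAC2 probes did not move alike. A_24_P228717, which crosses an intron, was 0.78 ± 0.19 higher in H2-3 on day 1 (adjusted p = 0.00381) and 0.56 ± 0.19 higher on day 2 (adjusted p = 0.0480), and 0.53 ± 0.20 and 0.34 ± 0.20 higher in H1-2 on days 1 and 2 (adjusted p = 0.0864 and 0.542). A_33_P3220160, designed on the separate cDNA, differed from H0 by 0.01, -0.22, 0.15 and -0.33 in H1-2 day 1, H1-2 day 2, H2-3 day 1 and H2-3 day 2, and was not called (adjusted p from 0.289 to 0.982). Its level was 0.17 to 1.61 over the 23 arrays, and its r with the other RAC2 probes was 0.01 and 0.04, while theirs with each other was 0.77.

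Set side by side, the members rose together on day 1 in the severe category: 5 of 5 were called higher and 0 lower, where 15% of the 21130 genes tested were called higher, 13.5% lower and 28.4% in either direction. Their median log2 difference was 1.18, against 0.14 over all genes tested. Of the 5, 4 had all H2-3 arrays above all H0 arrays, a separation that 9.57% of genes showed in that direction. No single array left out changed any of the 5 calls. On day 2 in H2-3, CYBA and NCF1 were called (2 of 5, where 10.3% of genes were called higher, 4.48% lower and 14.8% in either direction) and CYBB and CYBA did not overlap H0 (5.66% of genes); the median was 0.89, against -0.03 over all genes.

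In the milder category NCF4 was the 1 member of 5 called on day 1, where 4.18% of genes were called higher, 4.42% lower and 8.59% in either direction; the median was 0.76, against 0.09 over all genes, and 4 members had an unadjusted p under 0.05. Without H1-2 baboon 1, 0 members and 4 of 21130 genes were called in this comparison. On day 2, limma called 0 members and 0% of all genes, 0 members had an unadjusted p under 0.05, and their median was 0.24, against -0.01. These 4 comparisons share the H0 arrays, so they are not independent of each other. H0 baboon 1 was the lowest H0 array for 4 of the members (all but RAC2) and H0 baboon 3 the highest for CYBA, NCF1 and NCF4, and both enter every one of these values.

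**Figure D3:**
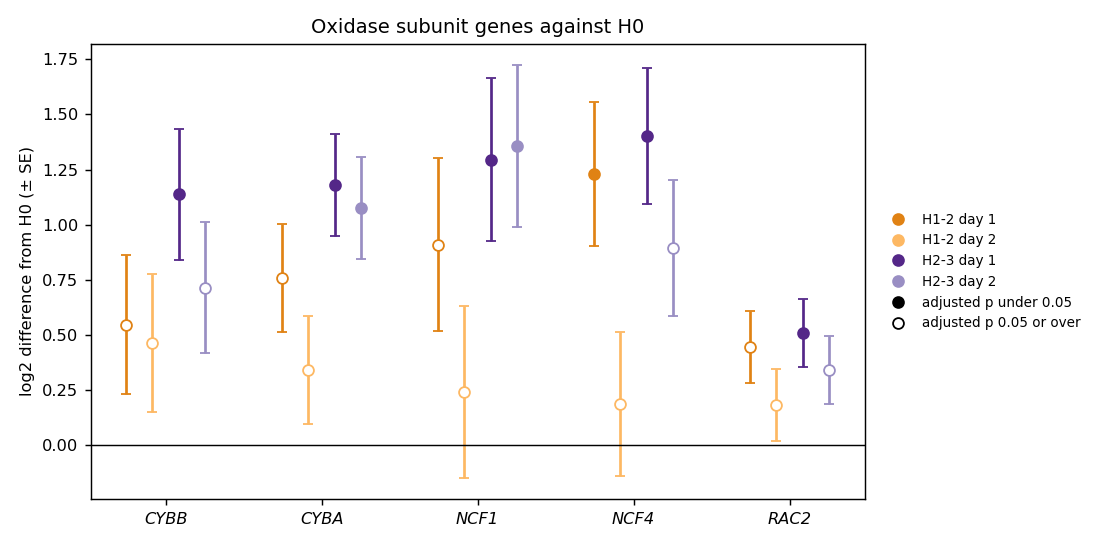
Log2 difference from H0 with its standard error for each subunit gene in H1-2 and H2-3 on days 1 and 2; filled points have an adjusted p under 0.05. All 20 points lie above 0; the filled ones are all 5 genes in H2-3 on day 1, CYBA and NCF1 in H2-3 on day 2 and NCF4 in H1-2 on day 1.

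The values within slides and scan days were as follows. Of the irradiated arrays, 1 shared a slide with an H0 array: on it baboon 1 of H2-3 on day 1 was above H0 baboon 5 by 1.13 for CYBB, 1.78 for CYBA, 2.47 for NCF1, 2.10 for NCF4 and 0.81 for RAC2. A fit with slide as a block rests on that pair for H2-3 and on slides it links for H1-2, and it called CYBA alone in H2-3 on day 1 (adjusted p = 0.0492) and no member in H1-2. A block on scan day sets the day 1 samples against the 3 H0 arrays of their own scan day; the H2-3 day 1 differences then were 0.87 for CYBB (adjusted p = 0.0648), 1.05 for CYBA (0.00963), 1.04 for NCF1 (0.0830), 1.15 for NCF4 (0.0236) and 0.51 for RAC2 (0.0499), and the NCF4 difference in H1-2 was 0.98 (adjusted p = 0.131).

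Other scalings of the arrays ended calls of RAC2, NCF1 and NCF4. With quantile normalisation the H2-3 day 1 difference was 0.30 for RAC2 (adjusted p = 0.148) and 0.93 for NCF1 (adjusted p = 0.0604), and in the value table the authors deposited 0.31 and 0.95 (0.147 and 0.0824). The NCF4 call in H1-2 on day 1 was also lost with quantile normalisation (0.95, adjusted p = 0.0541) and in the deposited table (0.97, 0.0702). Taking the 75th percentile over probes detected on all arrays moved the median of all genes in H2-3 from 0.14 to -0.05 on day 1 and from -0.03 to -0.18 on day 2, and the share of calls that were higher from 52.6 to 34.8% and from 69.7 to 43.6%. Under it RAC2 was 0.32 higher in H2-3 on day 1 (adjusted p = 0.104), and the other 4 members kept their calls. None of the 20 member differences from H0 was negative under these scalings.

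The comparison between categories asks whether the members differed by severity on the same day. On day 1 H2-3 minus H1-2 was 0.59 ± 0.31 for CYBB, 0.42 ± 0.25 for CYBA, 0.39 ± 0.39 for NCF1, 0.17 ± 0.33 for NCF4 and 0.07 ± 0.16 for RAC2. On day 2 it was 0.25 ± 0.31, 0.74 ± 0.25, 1.11 ± 0.39, 0.71 ± 0.33 and 0.16 ± 0.16 in the same order. The means of the severe category were thus higher for all members on both days, but limma called 0 of 5 members and 0% of all genes on either day (adjusted p from 0.958 to 1 on day 1 and from 0.508 to 0.811 on day 2). CYBA, NCF1 and NCF4 on day 2 had an unadjusted p under 0.05, and 0 members on day 1.

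These differences were uneven between the slides that held both categories, slides 1 and 2 on day 1 and slides 5 and 6 on day 2. Baboon 1 of H2-3 on day 1 lay on slide 3, which held no H1-2 array. It enters the day 1 differences above but not the values within slides. On day 2, slide 5 (H1-2 baboons 1 and 2, H2-3 baboons 1 to 3) gave 0.26 for NCF1, 0.34 for CYBA and 0.15 for NCF4, while slide 6 (H1-2 baboons 3 and 4, H2-3 baboons 4 and 5) gave 2.11, 1.17 and 1.30. On day 1, slide 1 gave -0.11 for CYBB and 0.01 for CYBA, and slide 2 gave 1.12 and 0.74. The number of arrays limits these values to 2 or 3 per category and slide.

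The change from day 1 to day 2 was read within the same numbered baboon, a pairing that rests on the titles. In H1-2 no baboon's day 1 array correlated best with its own day 2 array among those of its category. NCF4 was lower on day 2 in 4 of 4 baboons of H1-2, by 1.04, 0.23, 1.12 and 1.79, a mean change of -1.04 ± 0.34 (adjusted p = 0.141; 0.0692 with baboon as a block). A fall in which all day 2 arrays lie below all day 1 arrays was seen in 5.37% of genes. CYBA was also lower in 4 of 4 H1-2 baboons (-0.42 ± 0.26, adjusted p = 0.309), NCF1 in 3 of 4 (-0.67 ± 0.41, adjusted p = 0.308), RAC2 in 3 of 4 and CYBB in 2 of 4. Baboon 2 of H1-2 went the other way for NCF1, from 6.82 to 7.40, and for RAC2, from 8.36 to 8.65, while its CYBB dropped by 1.03.

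The day changes in H2-3 did not pass the test either. CYBA changed by -0.10 ± 0.23, NCF1 by 0.06 ± 0.37, RAC2 by -0.17 ± 0.15, CYBB by -0.43 ± 0.30 and NCF4 by -0.51 ± 0.31 (adjusted p from 0.300 to 0.939). CYBB, CYBA, NCF4 and RAC2 were each lower in 4 of 5 baboons, and NCF1 in 3 of 5; RAC2 of baboon 2 is counted as lower although it was 8.56 on both days. Baboon 4 was the exception for all members, joined by baboon 5 for NCF1 (0.21), with day 2 at or above day 1 by 0.10 for CYBB, 0.29 for CYBA, 0.68 for NCF1, 0.01 for NCF4 and 0.02 for RAC2. limma called 0 of 5 members in either category, where 0% of genes changed in H1-2 and 2.97% in H2-3 (1.74% higher, 1.23% lower); at an unadjusted p under 0.05 there was 1 member in H1-2, NCF4, and 0 in H2-3. These shares come from the fit without a block. With baboon as a random block 902 genes changed in H1-2 and 3406 in H2-3, and with baboon as a fixed block 4 and 1398, of 21130, and still 0 members in either. The difference between the categories in this change was not called for any member (adjusted p = 1.00, rounded, for all 5).

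**Figure D4:**
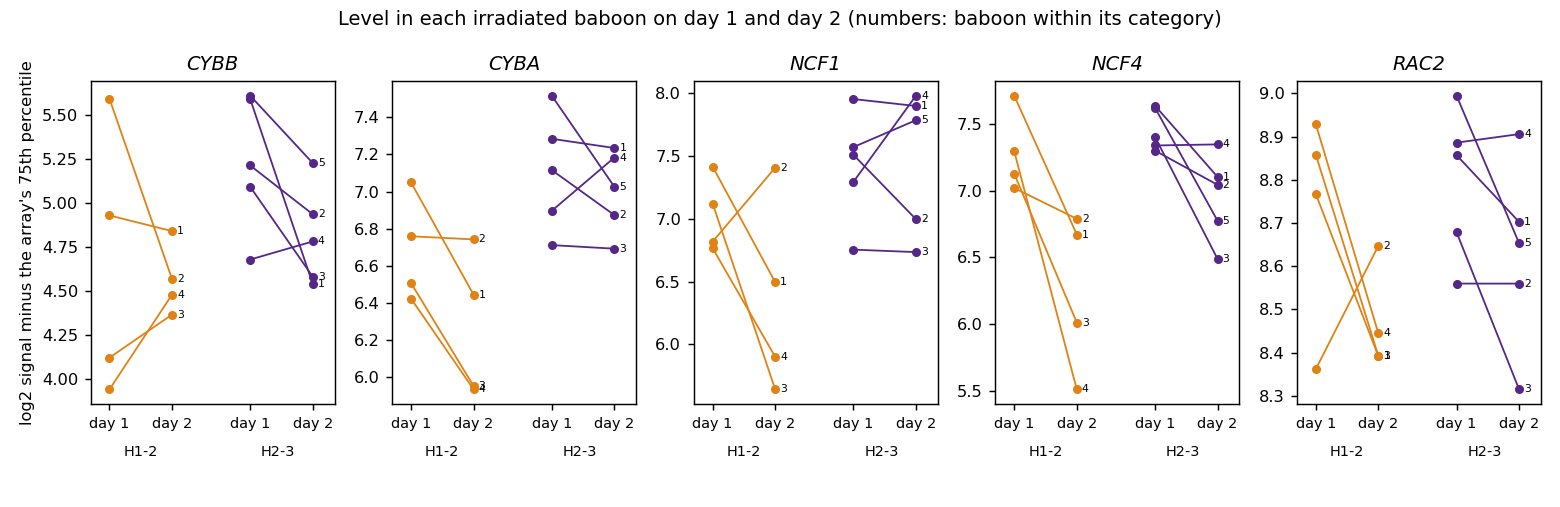
Level of each subunit gene (log2 signal minus the array's 75th percentile) on day 1 and day 2 in each irradiated baboon, joined by a line and numbered within its category; each panel has its own axis. NCF4 is lower on day 2 in all 4 H1-2 baboons, and H2-3 baboon 4 does not fall for any gene.

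The members resembled each other to different degrees over the 23 arrays, which share groups and slides. CYBA and NCF1 were the most alike (Pearson r 0.95, and 0.91 for deviations from the group means), followed by CYBA with NCF4 (0.89 and 0.85) and NCF1 with NCF4 (0.86 and 0.82). CYBB was nearest to CYBA (0.75 and 0.55). CYBB and RAC2 were the least alike, with r of 0.30 over all arrays and -0.33 for deviations from the group means.

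Among 14461 genes with a symbol, those most like NCF4 were UBTD1 (r 0.98), C1orf162 (0.97) and OXER1, a receptor for eicosanoids (0.97). Those most like CYBA were SRA1, CSF3R, the receptor for granulocyte colony-stimulating factor, and CYTH4, an exchange factor for ARF GTPases (each 0.96). NCF1 was most like FES, a tyrosine kinase of myeloid cells (0.96), TCIRG1, a subunit of the vacuolar proton pump (0.95), and PDCD7 (0.95). The nearest genes to CYBB were DRAM2 (0.93), C9orf91 (0.92) and DYNC1I2, a chain of cytoplasmic dynein (0.91), and to RAC2 they were SIPA1, an inactivator of Rap GTPases (0.91), GPSM3 (0.90) and F8A2 (0.89).

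Markers of the cells that carry the oxidase were among the genes that rose. Of 18 neutrophil markers tested of 20 in the list, 11 rose and 0 fell in H1-2 on day 1, 15 rose in H2-3 on day 1 and 7 in H2-3 on day 2. Their summed level was 8.42 to 10.75 in H0, 10.80 to 11.30 and 9.51 to 10.74 in H1-2 on days 1 and 2, and 10.81 to 11.46 and 10.43 to 11.30 in H2-3. Of 13 monocyte markers tested of 15, 4, 10 and 9 rose in the same comparisons and 0 fell, with summed levels of 9.22 to 10.25 in H0, 10.44 to 10.93 and 9.80 to 10.68 in H1-2, and 10.88 to 11.36 and 10.40 to 11.18 in H2-3. Of all genes, 4.18, 15 and 10.3% were called higher in these comparisons. In H1-2 on day 2 neither list had a call. H0 baboon 1 was the lowest H0 array for both summed lists as for 4 members, and H0 baboon 3 the highest. In H1-2 on day 2 baboons 1 and 2 lay above baboons 3 and 4 for both lists, as for CYBB, CYBA, NCF1 and NCF4.

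Part of the lymphocyte markers fell: of 13 T cell markers tested 5, 11 and 2 fell, of 10 B cell markers 0, 8 and 8, and of 11 NK cell markers 8, 11 and 3, in the same order, and 0 rose. Of all genes, 4.42, 13.5 and 4.48% were called lower and 4.18, 15 and 10.3% higher. Of 10 markers of immature granulocytes 1, 5 and 2 rose and 0, 0 and 1 fell. Among them ELANE and PRTN3 were well above background on only 6 and 4 arrays by their best probe. Of 10 platelet markers 0, 1 and 5 rose, and of 10 erythroid markers none was called. Leaving out single arrays moved the marker counts in H1-2 on day 1 and in H2-3 on day 2. In H1-2 on day 1 they were 0 without H1-2 baboon 1 for all lists, and 2 neutrophil, 1 monocyte, 1 T cell and 1 NK cell marker without H0 baboon 1; without H0 baboon 4 or 5 or H1-2 baboon 2 or 4 the neutrophil count was 7, 5, 3 and 5. On day 2 in H2-3, 3 neutrophil, 4 monocyte, 0 T cell, 6 B cell, 1 NK cell and 1 platelet marker were called without H0 baboon 1, and 3, 4, 0, 3, 0 and 0 without H2-3 baboon 4; without H2-3 baboon 5 the neutrophil and monocyte counts were 4 and 5, and without H0 baboon 3 the neutrophil count was 11. In H2-3 on day 1 the neutrophil count was 11 to 15 and the monocyte count 9 to 10 whichever array was left out, but with slide as a block they were 2 and 2 and with scan day as a block 9 and 9. Of the lymphocyte markers, 9 T cell, 3 B cell and 6 NK cell markers were called with the slide block. Both blocks called 0 markers of every list in H1-2 on day 1. The part of these shifts in the members' values was not tested.

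**Figure D5:**
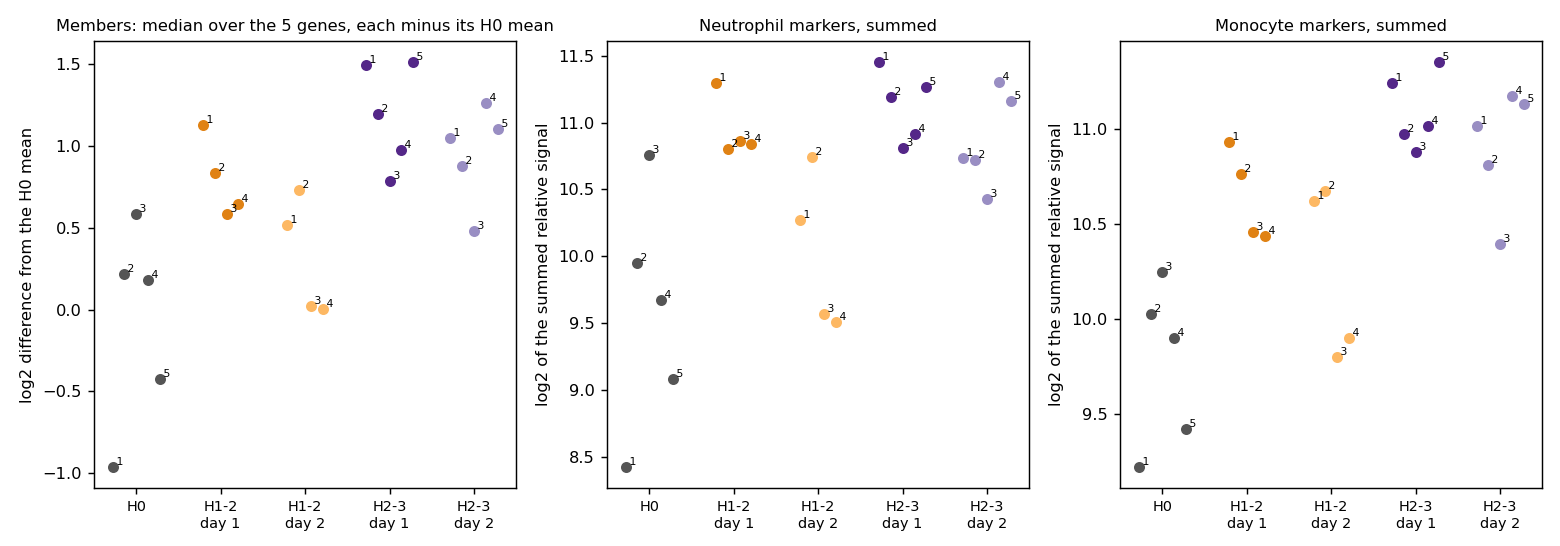
Left, median over the 5 subunit genes on each array, each gene minus its H0 mean (log2); middle and right, log2 of the summed relative signal of 18 neutrophil and 13 monocyte markers on the same arrays. Points are arrays, numbered by baboon; H0 baboon 1 is lowest and H0 baboon 3 highest within H0 in all 3 panels, with medians of -0.96 and 0.58 on the left.

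Of the other components and homologues of the oxidase, 8 of 18 genes could be tested. RAC1, the widely expressed Rac that can replace RAC2 in the complex, rose by 0.92 ± 0.27 in H1-2 on day 1 (adjusted p = 0.0386) and by 1.27 ± 0.25 and 1.03 ± 0.25 in H2-3 on days 1 and 2 (adjusted p = 0.000990 and 0.0147). NOXA1, the activator of the NOX1 oxidase in epithelia, fell in H2-3 by 1.09 ± 0.25 on day 1 (adjusted p = 0.00253) and by 0.94 ± 0.25 on day 2 (adjusted p = 0.0193). NOX1, an epithelial homologue of CYBB, was 0.74 ± 0.21 higher in H2-3 on day 1 by its brightest probe (adjusted p = 0.0110), but -0.38 by the mean of its kept probes, so its direction depends on the probe. NOX1 was also dim, at -2.90 in H0 and -2.17 in H2-3 on day 1. With normexp background correction its difference was 0.14 (adjusted p = 0.228), so its size depends on the background correction. The RAC1 call in H1-2 was lost without H0 baboon 1 (0.75), 4 (0.92) or 5 (0.95) or H1-2 baboon 1 (0.79), 2 (0.82) or 4 (0.97). On day 2 in H2-3 the RAC1 call was lost without H0 baboon 1 (0.86) or H2-3 baboon 4 (0.92), and the NOXA1 call without H2-3 baboon 4 (-0.82).

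C17orf62, an older name of CYBC1, which helps fold the cytochrome, was not called (0.50 ± 0.32 in H1-2 and 0.22 ± 0.31 in H2-3 on day 1), nor were RAP1A, a small GTPase bound to the cytochrome (0.28 ± 0.30 and 0.50 ± 0.29), HVCN1, the proton channel that balances its charge (0.48 ± 0.25 and 0.07 ± 0.23), and DUOXA1, a maturation factor of another oxidase (0.61 ± 0.38 and 0.46 ± 0.36). NOX4, a homologue of kidney and vessel wall, was well above background on 2 of 5 arrays of H2-3 on day 1 and 0 of 5 on day 2. Its fitted fall between the days passed the test (adjusted p = 0.0449), but the day 1 mean was not above the detection floor of day 2, so no fold is given. That call was lost under 16 alternatives, among them normexp background correction (-0.23), quantile normalisation (-1.39), the fixed baboon block (adjusted p = 0.0566) and 8 of the 10 arrays left out in turn, day 1 of baboons 2 to 5 and day 2 of baboons 2 to 5. NOX3, NOX5, DUOX1, DUOX2 and DUOXA2 were not well above background on any array, and NOXO1 on 1.

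Among receptors and signalling proteins that switch the oxidase on, part of the list rose. Of 26 tested, 10 rose in H1-2 on day 1, 20 in H2-3 on day 1 and 13 in H2-3 on day 2, and 0, 1 and 0 fell, with list medians of 0.93, 1.23 and 0.92. Over all genes, 4.18, 15 and 10.3% were called higher in these comparisons, with medians of 0.09, 0.14 and -0.03. ITGAM, the alpha chain of the complement receptor on phagocytes, rose by 1.97 ± 0.35 in H2-3 on day 1 (adjusted p = 0.000408), PAK1, a kinase that Rac activates, by 2.00 ± 0.33 (0.000235), and SYK, the kinase below Fc receptors, by 1.35 ± 0.23 (0.000294). All 3 were also called in H1-2 on day 1 (1.70, 1.75 and 1.19) and in H2-3 on day 2 (1.70, 1.51 and 1.25). The PAK1 values depend on the probe: by the mean of its kept probes they were 1.07 and 1.14 in H1-2 and H2-3 on day 1, both called, and 0.60 in H2-3 on day 2, not called (adjusted p = 0.102).

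Enzymes that supply NADPH, the oxidase's fuel, showed 4, 7 and 5 of 10 higher and 0, 1 and 0 lower in the same comparisons, with medians of 1.05, 1.15 and 1.10. Of all genes, 4.18, 15 and 10.3% were called higher and 4.42, 13.5 and 4.48% lower. SLC2A3, a glucose transporter, rose by 2.19 ± 0.34 in H2-3 on day 1 (adjusted p = 0.000148), and TALDO1 and TKT, enzymes of the pentose phosphate pathway, by 1.15 ± 0.21 (0.000611) and 1.31 ± 0.27 (0.00116). They were called in H1-2 on day 1 too, at 1.98, 1.17 and 1.07, and in H2-3 on day 2, at 1.43, 1.01 and 1.18.

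Genes that handle superoxide and peroxide were mixed: 2, 7 and 3 of 18 rose and 1, 1 and 1 fell, with medians of 0.26, 0.44 and 0.38. Of all genes, 4.18, 15 and 10.3% were called higher and 4.42, 13.5 and 4.48% lower. SOD2, the mitochondrial superoxide dismutase, rose by 1.62 ± 0.39 in H2-3 on day 1 (adjusted p = 0.00386) and PRDX5, a peroxiredoxin, by 1.01 ± 0.23 (0.00235), whereas PRDX4, the peroxiredoxin of the endoplasmic reticulum, fell by 1.75 ± 0.26 (0.000108). All 3 kept these directions and a call in H1-2 on day 1 (1.51, 0.83 and -1.01) and in H2-3 on day 2 (1.37, 0.95 and -0.84).

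Of 12 transcription factors known to act on oxidase genes, 3, 8 and 5 rose and 0, 1 and 0 fell, with medians of 0.69, 0.82 and 0.74. Of all genes, 4.18, 15 and 10.3% were called higher and 4.42, 13.5 and 4.48% lower. SPI1, the factor that drives CYBB, NCF1 and NCF4 in myeloid cells, rose by 1.57, 1.84 and 1.40 in H1-2 on day 1 and in H2-3 on days 1 and 2 (adjusted p = 0.0145, 0.000314 and 0.00989), and CEBPA by 1.42, 1.79 and 1.16 (0.0244, 0.000750 and 0.0300). On day 2 in H1-2 none of the 5 lists held a call, as for the members.

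Single arrays decided several of these calls. Without H1-2 baboon 1, 0 genes of the receptor, NADPH, superoxide and regulator lists were called in H1-2 on day 1. Without H0 baboon 1, H0 baboon 5 or H1-2 baboon 2 the counts there were 6, 6 and 6 for receptors, 2, 2 and 2 for NADPH enzymes, 1, 1 and 1 for regulators and 0, 0 and 0 for superoxide genes, while without H0 baboon 3 they reached 17 receptors and 7 superoxide genes. The receptor count in H2-3 on day 2 was 6, 8, 6 and 7 without H0 baboon 1, H0 baboon 5, H2-3 baboon 4 or H2-3 baboon 5, and the regulator count was 1 without any of these. The superoxide count there was 1 without H0 baboon 1 or H2-3 baboon 4 and 2 without H0 baboon 2, 4 or 5 or H2-3 baboon 1. The calls of SOD2, PRDX4 and CEBPA on day 2 were among those lost without H0 baboon 1 or H2-3 baboon 4. The NADPH count in H2-3 on day 1 was 5 in place of 8 without H0 baboon 1 or 5 or H2-3 baboon 1 or 4, and the genes named from these 4 lists kept their calls without any single array. With slide as a block, however, the H2-3 day 1 calls of SLC2A3 (adjusted p = 0.0989), TALDO1 (0.0773), TKT (0.0762), SYK (0.109), SOD2 (0.154), CEBPA (0.0806), RAC1 (0.340), NOXA1 (0.190) and NOX1 (0.174) were lost. The receptor, NADPH, superoxide and regulator lists then held 7, 1, 3 and 2 calls, and 17, 5, 5 and 3 where scan day was the block; both blocks left 0 in H1-2 on day 1.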

How the data were processed

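Whole-blood RNA from 23 samples was labelled with Cy3 and hybridised to human 8x60K arrays. The authors deposited scanner output whose processed intensity values, per the file headers, were background-subtracted by Agilent Feature Extraction 10.7.3.1, and a table of 39726 probes in log2 with a median of 4.70 in every column; no source used here says how its probes were chosen and centred, and 39637 of them were matched to scanner probes (r 0.998 to 1.00 with their own array). Of 62976 spots 4259 controls were left out, as were outlier spots of probes with another spot. The log2 intensity was averaged per probe and reduced by the array's 75th percentile (80.9 to 156.4 intensity units), probes well above background on at least 4 arrays were kept (27215 of 50599), and each gene took its brightest kept probe (21130 genes). A marker list's summed level is log2 of its summed relative signals. limma 3.58.1 in R 4.3.3 fitted 5 group means to all 23 arrays, with two-sided p-values adjusted by the method of Benjamini and Hochberg over all genes at 0.05. The steps were tested on simulated data, in which 200 of 21130 genes were changed in H2-3 on day 1. Against H0 they called 43% of the changes of 1 log2 unit and 84% of those of 2, with 7 false calls. The simulated noise was normal and independent between genes and arrays, with no slide, scan day or baboon effect. In the data 28.4% of genes were called in this comparison, so these rates need not hold there. The titles number baboons within a category on both days, and this number was taken as the same animal. Deviations from the group means correlated between a baboon's 2 days with r of 0.05 to 0.44. Of 9 baboons 4 correlated best with themselves, all of them in H2-3 and none in H1-2. Numbers shared between categories, or with H0, name different animals or animals of unknown identity. The number of arrays limits the precision. Alternatives were another background correction, scaling, filter, probe rule and block, the deposited table, and each array left out. Every member was named with all its probes, as were the tested genes of the list of other oxidase components, the 3 genes of each further pathway list with the smallest limma F-test p over the 5 groups, and the 3 genes with the highest Pearson r to each member; some of the genes so chosen are not reported here. The members and lists were chosen with earlier results of these data known.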

Additional observations from a re-analysis of the deposited data

Results flagged for a closer look

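Of 50 tests for a single far array, over 10 probes in 5 groups, 2 found one, where chance alone gives about 1 in 20. CYBB in H0 baboon 1 was at 3.06 (log2, minus the array's 75th percentile), far below the next H0 array at 4.28. RAC2 probe A_33_P3220160 in H1-2 baboon 4 on day 2 was at 0.50, below the next array of its group at 0.88; this probe does not give the RAC2 values above.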

How the results depend on the processing

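Counts of members called, where they moved by over 1.5 times, were these. In H1-2 on day 1 (1 of 5) they were 3 with normexp background correction, 2 with probes well above background on 12 arrays, and 0 with quantile normalisation, the deposited table, the slide block, the scan day block, the block on title numbers and the groups fitted alone, and 0 to 3 with 1 array left out. In H2-3 on day 1 (5) they were 3 with quantile normalisation, the deposited table and the scan day block, 1 with the slide block, and 5 to 5 with 1 array left out. In H2-3 on day 2 (2) they were 4 with normexp, 1 with the deposited table and the groups alone, and 1 to 3 with 1 array left out. They were 0 in the other 5 comparisons and the interaction under all alternatives run. Baboon as a replicate block, random (45 member results) or fixed (15), changed 0 calls of members, with counts of 1, 0, 5 and 2 against H0; between the days, calls over all genes were 902 and 3406 (random) or 4 and 1398 (fixed) in H1-2 and H2-3, against 0% and 2.97% without it; the block on title numbers, which pairs different animals, changed 1 (NCF4, 1.19). Over all genes, the calls in H1-2 on day 1 were 1816 (48.6% higher), against 2320 (32.4%) with a percentile taken from the always detected probes, 9 with the slide block, 4 with the scan day block, 211 with the groups alone and 497 without H0 baboon 1; of the quantile calls 34.5% were higher. In H2-3 on day 1 the slide block called 1112 in place of 6007, and on day 2 the groups alone called 1602 in place of 3123. Signs turned in these differences, none of them called in the main setting except that of NOX1 (H2-3 on day 1 minus H0, -0.38 by the mean over probes). NCF1 in H1-2 on day 2 was -0.01 without H0 baboon 1 and -0.11 without H1-2 baboon 2 (-0.11 to 0.50 over all arrays left out), and NCF4 -0.05 without H0 baboon 1 (-0.05 to 0.49). RAC2 between categories on day 1 was -0.03 with quantile and deposited values, 0.00 with the detected-probe percentile and -0.06 without H1-2 baboon 2 (-0.06 to 0.13). The CYBB day change in H1-2 was 0.02 with normexp, 0.05 with quantile, 0.04 in the deposited table, and 0.01 and 0.23 without day 1 of H1-2 baboons 1 and 2 (-0.32 to 0.23); that of CYBA in H2-3 was 0.01 with quantile and in the deposited table. The NCF1 day change in H2-3 was -0.01 by the mean over probes, -0.10 without day 1 of baboon 3, and -0.04, -0.06 and -0.01 without day 2 of baboons 1, 4 and 5 (-0.10 to 0.25); the RAC2 interaction was -0.06 by the mean over probes. The cause of these shifts was not tested. Signal over background limits 12 genes of the pathway lists, which were not tested, and the dim markers named above, not the members.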
